A study of Homo sapiens with 40 samples.

Results

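The genes described here load and switch on the replicative DNA helicase at origins of replication. They are 10 genes, namely ORC1, CDC6, CDT1, the helicase subunit genes MCM2, MCM3, MCM4, MCM5, MCM6 and MCM7, and MCM10. They were listed by symbol, with earlier results of these data known, out of 60708 genes counted in each of 24 RNA-seq libraries. All 10 were found once and passed the filter on low counts in every comparison.

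Before S phase, the origin recognition complex binds DNA, and CDC6 and CDT1 then help it to place rings of MCM2 to MCM7 around the double strand, a step called licensing. The rings stay inactive until S phase, when kinases and firing factors such as CDC45 and the GINS proteins turn them into moving helicases. Geminin, encoded by GMNN, binds CDT1 and keeps DNA from being licensed again in the same cycle. Most of these genes are classic targets of E2F transcription factors and are transcribed around the G1/S transition, so dividing cells hold more of their mRNA than resting cells.

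The libraries fell into 8 groups of 3, labelled as separate replicates. MI libraries came from MCF-10A, an immortalized, non-tumorigenic breast epithelial line with WT genotype, and MII libraries from MCF-10A-HRAS, a breast epithelial line transformed with HRAS and also labelled WT. Both were grown in suspension as 3D spheres on ultra-low attachment plates, and were either untreated (Ctrl) or given TGF-beta1 at 2.5 ng/ml for 16 h (TGFβ). The other 4 groups were monolayers of MDA-MB-231, a triple-negative breast cancer line, kept in DMEM with 10% FBS. They were untreated WT cells, cells labelled SLUG knockout and made with CRISPR/Cas9 (SLUG KO), WT cells given a control scramble siRNA (Csi), and WT cells given SMAD2/3/4 siRNAs. The knockout cells were grown from single-cell colonies, and nothing in the sources used here says how many clones entered the libraries. The sphere, WT and SLUG KO libraries carry a different sequencing batch label from the siRNA libraries, so no test was run across these sets.

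Assigned reads per library ranged from 14124688 to 38406952. HRAS was at 220.1 ± 4.09 CPM (read counts scaled to the effective library size with TMM, mean ± SD, n = 3) in MII Ctrl and at 40.7 ± 1.01 CPM in MI Ctrl. In the siSMAD2/3/4 libraries SMAD2, SMAD4 and SMAD3 RNA fell by 1.92, 1.72 and 0.69 on the log2 scale against Csi. SNAI2, which encodes SLUG, was higher in the libraries labelled SLUG KO, at 61.8 ± 3.60 CPM, than in WT, at 28.2 ± 6.62 CPM (log2 fold-change 1.10, edgeR adjusted p = 0.0399). The guide cut exon 1, and an RNA count does not check such an edit, so directions below are given for libraries labelled SLUG KO. The spheres had the epithelial gene CDH1 at 527 to 716 CPM on average, while the 4 basal mammary genes checked did not move as 1 set between the lines. TP63, KRT5 and KRT17 were at 51.2 ± 2.28, 106.6 ± 2.46 and 1281 ± 34.3 CPM in MI Ctrl and at 0.620 ± 0.136, 18.9 ± 1.07 and 329 ± 1.73 CPM in MII Ctrl, whereas KRT14 was at 1.56 ± 0.0460 and 8.41 ± 0.795 CPM. MDA-MB-231 libraries had the mesenchymal genes VIM and ZEB1 at 732 to 1007 and 84.9 to 99.1 CPM on average, but CDH2 at only 1.18 to 2.28 CPM, below its mean in both MII groups (10.3 ± 1.25 CPM in MII TGFβ), and FN1 ranged from 87.6 CPM in SLUG KO to 2892 CPM in siSMAD2/3/4 libraries. WT replicate 2 stood apart, with a Pearson r of log2 CPM of 0.957 and 0.952 with the other WT libraries, which had 0.989 between them.

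The promoters are shown because the licensing genes moved together in several comparisons below. RefSeq windows on GRCh38.p14, from 250 bases before to 50 bases after each annotated start, were given for 8 of the 10 genes, and were searched on both strands for the E2F-type words TTTCCCGC, TTTCCCGG, TTTCGCGC, TTTCGCGG, TTTGCCGC, TTTGCCGG, TTTGGCGC and TTTGGCGG. At least 1 word was found for 7 of these 8 genes (87.5%), for 14 of the 28 other licensing and firing genes with a window (50.0%), and for 2030 of all 27305 genes with a window (7.43%). The sequence CCAAT was found on either strand for 6 of the 8 (75%), 12 of the 28 (42.9%) and 39.7% of all genes. All genes here were not matched to the members for base composition. In MCM6 and MCM2 words on the 2 strands overlapped, as in the 12-base run TTTGGCGCGAAA that stands in the MCM6 promoter at positions -152 and -90. CDT1 had words at -35 and -27, CDC6 at -28 and at 8 bases after the start, and MCM7 at -187 and -9 of its upstream start. In MCM10 and MCM2 the words lay after the start, at positions 6 and 3. ORC1 had none of these words, which says only that these letters are not in its window. A match is a description of letters and no evidence of binding. The 160 bases before the start, 5′ to 3′ on the gene's strand with words in capitals, are given for the genes with the largest responses in MII spheres (MCM10, CDC6 and ORC1) and the smallest (MCM7), for CDT1, the loading partner of CDC6, and for MCM6, which had the most words.
ORC1, chr1:52404424-52404583, minus strand: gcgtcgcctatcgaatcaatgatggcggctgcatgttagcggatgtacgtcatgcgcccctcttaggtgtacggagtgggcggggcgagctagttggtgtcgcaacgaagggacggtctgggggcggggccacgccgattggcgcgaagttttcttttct
CDC6, chr17:40287719-40287878, plus strand: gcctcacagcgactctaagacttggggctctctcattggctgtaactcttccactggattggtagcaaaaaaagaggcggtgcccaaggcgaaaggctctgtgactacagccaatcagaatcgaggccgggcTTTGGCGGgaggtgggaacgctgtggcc
CDT1, chr16:88803629-88803788, plus strand: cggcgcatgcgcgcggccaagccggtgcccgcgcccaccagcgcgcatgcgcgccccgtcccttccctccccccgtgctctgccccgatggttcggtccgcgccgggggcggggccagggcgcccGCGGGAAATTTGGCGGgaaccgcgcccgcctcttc
MCM6, chr2:135876444-135876603, minus strand: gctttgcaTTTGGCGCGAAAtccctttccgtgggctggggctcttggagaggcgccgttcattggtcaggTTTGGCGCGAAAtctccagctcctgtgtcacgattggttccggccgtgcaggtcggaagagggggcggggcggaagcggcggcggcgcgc
MCM7, chr7:100101398-100101557, minus strand: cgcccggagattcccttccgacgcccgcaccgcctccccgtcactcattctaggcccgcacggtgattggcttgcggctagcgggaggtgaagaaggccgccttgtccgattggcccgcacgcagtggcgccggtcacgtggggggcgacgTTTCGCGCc
MCM10, chr10:13161398-13161557, plus strand: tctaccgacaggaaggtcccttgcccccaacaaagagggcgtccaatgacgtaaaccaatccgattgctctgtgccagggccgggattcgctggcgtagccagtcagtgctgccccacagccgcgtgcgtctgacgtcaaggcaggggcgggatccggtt

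TGFβ raised all 10 licensing genes in MII spheres. The rise was largest for MCM10, CDC6 and ORC1 and smallest for MCM7, and the 3 stimulated libraries lay above the 3 unstimulated libraries for every member, as they did for 34.3% of all genes tested. In this comparison 29.9% of the 16396 genes tested were higher at an adjusted p under 0.05, and 3.12% were also more than 1 log2 unit higher (a DEG, differentially expressed gene), which 9 of the 10 licensing genes were. Their median log2 fold-change was 1.59, while that of all genes tested was -0.02. Bulk RNA cannot tell more cells that transcribe a gene from more of its RNA in each cell.

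ORC1 (ENSG00000085840.13, chr1:52372829-52404423 of GRCh38), the only subunit of the origin recognition complex that is widely known to be degraded and rebuilt in each cycle, was at 1.26, 1.64 and 1.33 CPM in MII Ctrl and at 7.17, 6.80 and 7.20 CPM in MII TGFβ. Every stimulated library was above every unstimulated library, and the fold-change was 4.74 (log2 2.24 ± 0.194, SE, edgeR adjusted p = 1.60e-14). CDC6 (ENSG00000094804.12, chr17:40287879-40304657), the ATPase that joins ORC to recruit the helicase, was at 8.27, 5.82 and 5.27 CPM without and 32.2, 34.9 and 35.4 CPM with TGFβ. The groups were far apart, with a fold-change of 5.29 (log2 2.40 ± 0.102, adjusted p = 9.00e-27), and only 0.396% of the genes tested had a larger rise. CDT1 (ENSG00000167513.9, chr16:88803789-88809258), which escorts the MCM ring to the origin, was at 2.98, 4.45 and 3.05 CPM without and 7.44, 8.20 and 7.54 CPM with TGFβ. Its rise of 2.08-fold (log2 1.06 ± 0.160, adjusted p = 1.43e-07) was smaller than those of ORC1 and CDC6, although the libraries did not overlap.

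Among the subunits of the ring, MCM2 (ENSG00000073111.14, chr3:127598410-127622436) was at 5.36, 7.92 and 6.82 CPM in MII Ctrl and at 28.3, 23.5 and 28.7 CPM in MII TGFβ. This was a 3.79-fold rise (log2 1.92 ± 0.106, adjusted p = 6.16e-22), the largest of the 6 subunits. MCM6 (ENSG00000076003.5, chr2:135839626-135876443) followed with 10.3, 11.6 and 11.6 CPM without and 38.6, 40.8 and 32.9 CPM with TGFβ (log2 1.70 ± 0.0841, adjusted p = 7.24e-24), and MCM5 (ENSG00000100297.16, chr22:35400134-35425431) rose from 16.0 ± 0.949 to 46.1 ± 4.23 CPM (log2 1.48 ± 0.0741). MCM3 (ENSG00000112118.20, chr6:52264014-52284881) and MCM4 (ENSG00000104738.18) rose by 2.17 and 2.04-fold, to 82.4 ± 3.06 and 91.1 ± 4.18 CPM. MCM7 (ENSG00000166508.18, chr7:100092728-100101940) was at 73.1, 76.9 and 66.9 CPM without and 88.4, 95.6 and 101.2 CPM with TGFβ. It was thus already abundant in unstimulated spheres and rose only 1.28-fold (log2 0.35 ± 0.0535, adjusted p = 1.31e-07), while 16.9% of the genes tested had a larger rise.

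MCM10 (ENSG00000065328.17, chr10:13161558-13211110) is not a ring subunit: it binds the loaded ring and helps it to start moving. It had 0.992, 0.735 and 1.44 CPM in MII Ctrl, from 15, 22 and 26 reads, and 11.4, 11.9 and 11.4 CPM in MII TGFβ. The 11.1-fold rise (log2 3.47 ± 0.188, adjusted p = 2.89e-22) was exceeded by 0.0915% of the genes tested, and its size rests on few reads in the unstimulated libraries. Leaving out each library in turn or changing the scaling, filter or tool kept it between 3.18 and 3.76 on the log2 scale. The proliferation gene MKI67 and the replication clamp gene PCNA moved in the same direction, by 2.04 ± 0.0942 and 1.16 ± 0.0498 on the log2 scale, and their part in the result was not tested.

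**Figure D1:**
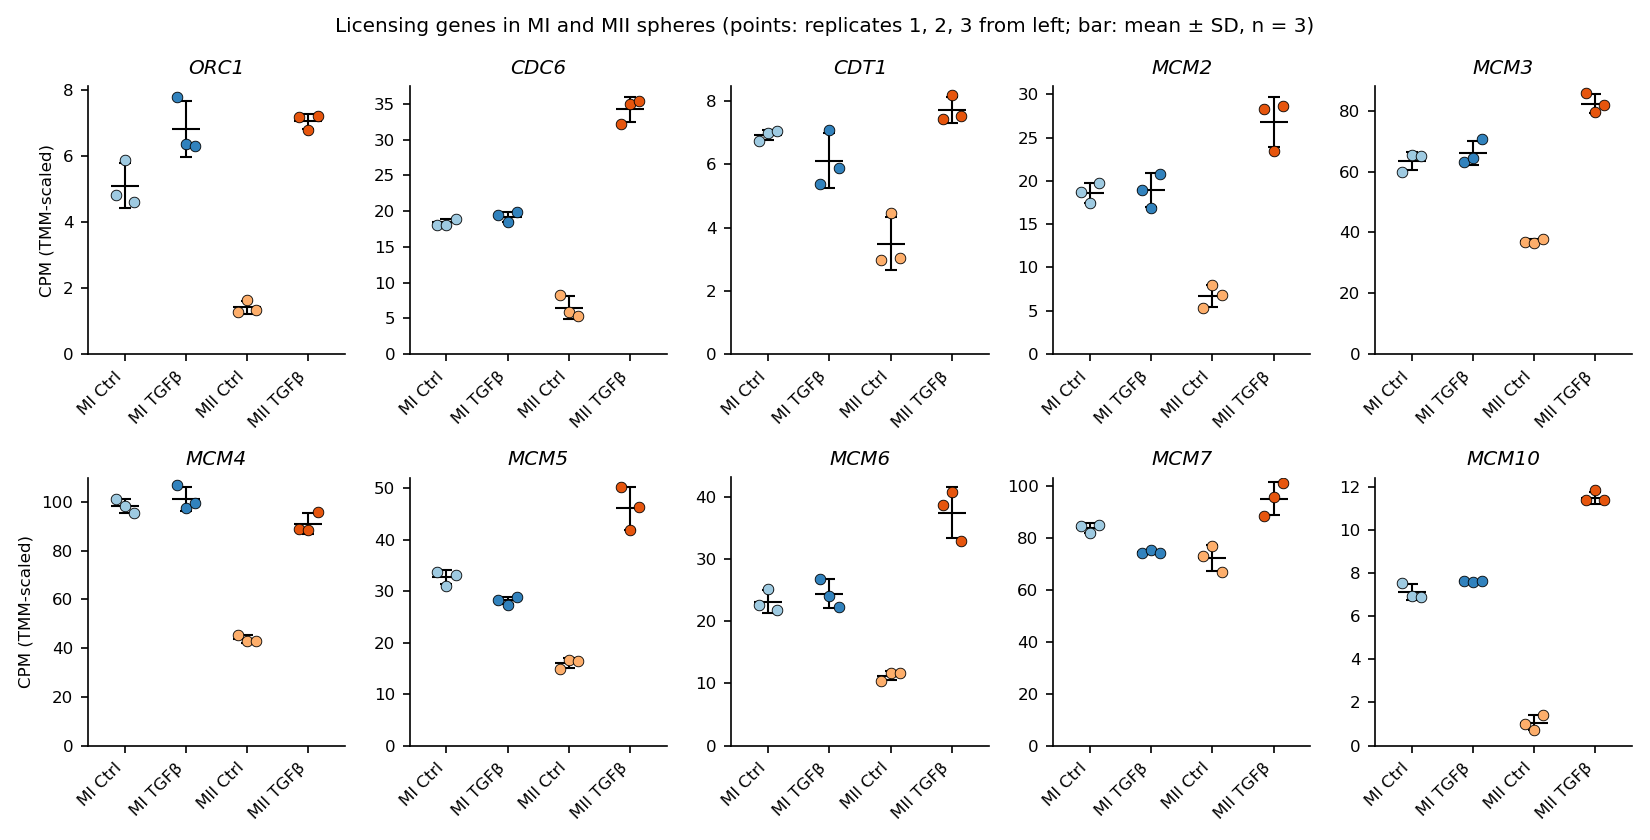
CPM of each licensing gene in the 12 sphere libraries, with 1 panel for each gene, points for libraries and bars for the mean ± SD of 3 libraries. In every panel the MII Ctrl group has the lowest mean (in 9 of 10 under library totals alone), and the MII TGFβ libraries lie above it, from 0.992, 0.735 and 1.44 to 11.4, 11.9 and 11.4 CPM for MCM10.

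In MI spheres the same treatment raised none of the 10 genes. MCM5 fell from 33.7, 31.1 and 33.2 CPM to 28.3, 27.4 and 28.9 CPM (log2 -0.30 ± 0.0689, edgeR adjusted p = 0.00102), and MCM7 from 84.7, 81.7 and 84.9 CPM to 74.0, 75.3 and 74.2 CPM (log2 -0.25 ± 0.0543, adjusted p = 5.36e-04). For both genes all stimulated libraries lay below all unstimulated ones, as for 25.7% of all genes tested. Of all 16863 genes tested, 27.4% were lower and 28.7% higher at that threshold, so 2 of 10 lower is below the background share. With library totals alone 6 of 10 were lower, against 37.4% of all genes. The members' median log2 fold-change of -0.03 was near the -0.02 of all genes.

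The remaining members of the list in MI spheres had log2 fold-changes from -0.26 for CDT1 to 0.33 for ORC1. ORC1 was at 4.82, 5.87 and 4.62 CPM without and 7.79, 6.35 and 6.30 CPM with TGFβ, so that its libraries did not overlap, but it did not pass the test (0.33 ± 0.144, adjusted p = 0.058). ORC1 did pass under 6 of 15 alternative settings, with adjusted p between 0.0222 and 0.28 over all of them, among them the fit without MI Ctrl replicate 2 (0.45), without MI TGFβ replicate 2 (0.37) and without MI TGFβ replicate 3 (0.40). CDT1 passed without MI TGFβ replicate 2 (-0.38) and under library totals alone (-0.39). MCM10, at 7.56, 6.93 and 6.90 CPM without and 7.63, 7.61 and 7.66 CPM with TGFβ, did not pass (0.01 ± 0.118, adjusted p = 0.939), and CDC6 was at 18.4 ± 0.463 and 19.2 ± 0.711 CPM (-0.02 ± 0.0795, adjusted p = 0.88). MKI67 had a log2 fold-change of -0.02 ± 0.0964 and PCNA of 0.09 ± 0.0579 in the same libraries. CPM levels were scaled over all 24 libraries and each test over its own, so their signs can differ near 0, as for CDC6.

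The response of MII spheres was set directly against that of MI spheres with an interaction term over the 12 sphere libraries. All 10 genes had a more positive response in MII, against a background of 12.6% of the 18591 genes tested, and 9 of them by more than 1 log2 unit, against 3.75%. The difference between the responses was 3.47 ± 0.223 log2 units for MCM10, 2.43 ± 0.139 for CDC6 and 2.00 ± 0.147 for MCM2 (edgeR adjusted p = 1.81e-15, 6.71e-17 and 9.02e-14). ORC1 and MCM5 followed with 1.92 ± 0.234 and 1.79 ± 0.106. MCM7 again had the smallest difference, 0.62 ± 0.0811 (adjusted p = 1.36e-07). Each of the 10 genes stayed past the threshold under all 20 alternatives of this test.

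Unstimulated MII spheres held less RNA of every licensing gene than unstimulated MI spheres. In this comparison, which shares its libraries with the ones above, 32.5% of 17862 genes tested were lower, and 7.62% were lower DEGs, which 7 of the 10 members were. MCM10 had the largest difference (log2 -2.81 ± 0.199, edgeR adjusted p = 2.33e-18), ORC1 was 3.49-fold lower (-1.80 ± 0.201) and CDC6 was 2.89-fold lower (-1.53 ± 0.108). Ring subunits ranged from MCM2, 2.68-fold lower with 5.36 to 7.92 CPM against 17.5 to 19.7 CPM, to MCM7, 1.15-fold lower with 66.9 to 76.9 CPM against 81.7 to 84.9 CPM. The MCM7 difference was -0.20 ± 0.0492 (adjusted p = 4.73e-04) and was not past the threshold when library totals alone were used for scaling (-0.10, adjusted p = 0.0708). The members' median was -1.09 and that of all genes 0.02. No member's libraries overlapped between the lines, against 34.6% of all genes that were lower in this way. MKI67 and PCNA had log2 fold-changes of -2.03 ± 0.0893 and -1.19 ± 0.0491 in the same libraries.

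After stimulation the order turned for most genes. In MII TGFβ against MI TGFβ spheres 8 of the 10 genes were higher, against 31.1% of 15878 genes tested, and none reached a log2 difference of 1. CDC6 was at 32.2, 34.9 and 35.4 CPM in MII and at 19.4, 18.4 and 19.8 CPM in MI, a 1.87-fold difference (log2 0.91 ± 0.0792, edgeR adjusted p = 7.99e-10). MCM5, MCM6 and MCM10 were 1.72, 1.62 and 1.59-fold higher, and all MII libraries lay above all MI libraries for each, as they did for 8 of the 10 members and 29.2% of all genes. MCM4 was at 91.1 ± 4.18 CPM in MII and 101.2 ± 4.93 CPM in MI (-0.08 ± 0.0576, adjusted p = 0.26), and ORC1 at 7.05 ± 0.224 and 6.81 ± 0.846 CPM (0.13 ± 0.142, adjusted p = 0.435). The call on CDT1 (0.41 ± 0.147, adjusted p = 0.0201) was lost with DESeq2, without MI TGFβ replicate 1 and without MII TGFβ replicate 2, with adjusted p of 0.142, 0.0948 and 0.0815. MKI67 stood at 31.7 ± 2.17 CPM in MII TGFβ and 32.5 ± 4.78 CPM in MI TGFβ, and did not pass the test (0.04 ± 0.0999, adjusted p = 0.736). Here too the levels and the test were scaled over different sets of libraries, and the signs differ.

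**Figure D2:**
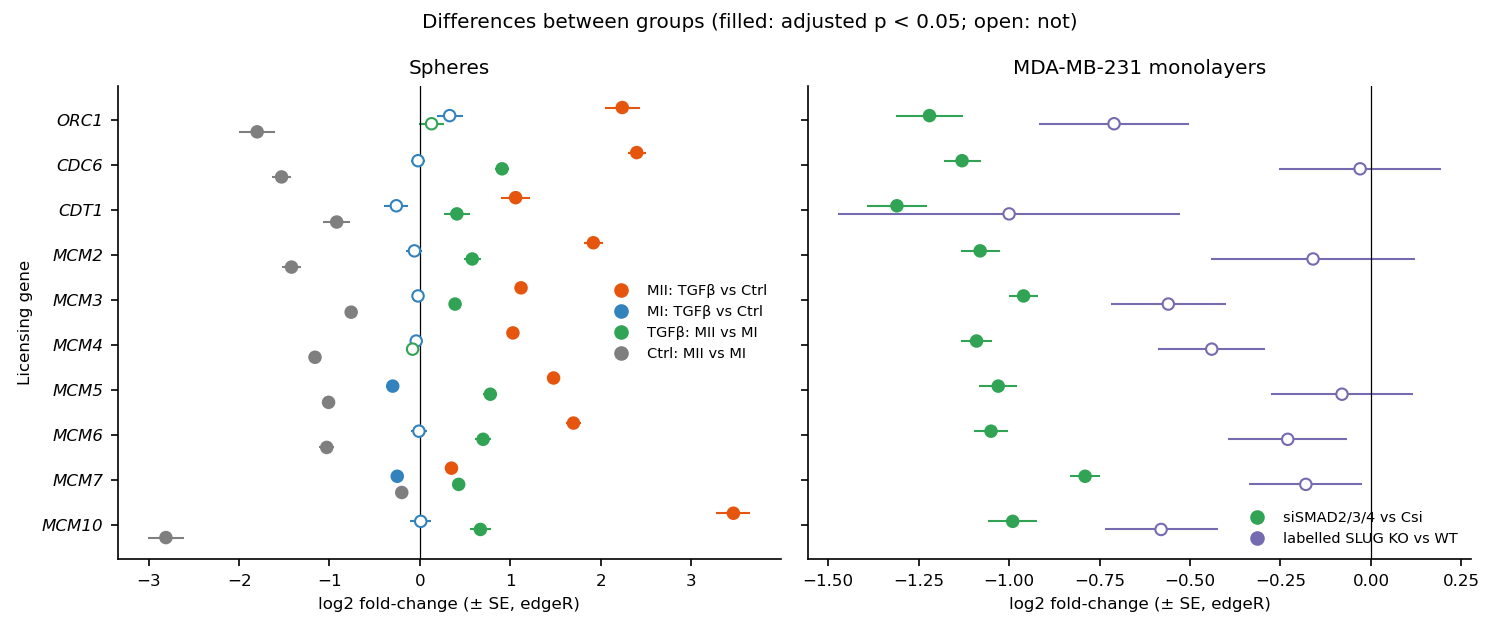
log2 fold-change of each licensing gene with its SE in the 4 sphere comparisons (left) and the MDA-MB-231 comparisons (right), filled where the edgeR adjusted p was under 0.05. In MII spheres the TGFβ effect runs from 0.35 for MCM7 to 3.47 for MCM10, in MI spheres from -0.30 to 0.33, and under SMAD2/3/4 siRNAs from -1.31 to -0.79.

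In MDA-MB-231 cells given SMAD2/3/4 siRNAs all 10 licensing genes were lower than with the control siRNA. The background was 19.7% of 17696 genes lower and 0.927% lower DEGs, which 7 of the 10 members were. Their median log2 fold-change was -1.06, with 0.00 for all genes, and the changes lay between -1.31 and -0.79. These cells carry no label of added TGFβ.

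CDT1 had the largest drop, from 45.1, 43.0 and 39.2 CPM in Csi to 17.1 ± 2.85 CPM in siSMAD2/3/4 libraries, a 2.48-fold difference (log2 -1.31 ± 0.0820, edgeR adjusted p = 4.35e-14). ORC1 was at 19.7, 20.3 and 16.5 CPM and then at 7.93, 8.89 and 7.55 CPM (-1.22 ± 0.0935, adjusted p = 4.18e-12), and CDC6 at 74.7, 79.2 and 79.2 CPM and then at 36.6, 34.2 and 36.3 CPM (-1.13 ± 0.0510, adjusted p = 3.27e-17). In this fit the 3 loading factors sat at the lower end of the list, with CDC6 close to MCM4, but this order changed with the flow cell term below. No member's groups overlapped, against 22.7% of all genes lower in this way. The fold-changes of MCM4, MCM2, MCM6, MCM5 and MCM3 were -1.09, -1.08, -1.05, -1.03 and -0.96 on the log2 scale. MCM10 went from 37.1 ± 1.83 to 18.7 ± 1.31 CPM (-0.99 ± 0.0674). MCM7 had the smallest drop, from 257, 267 and 274 CPM to 163, 155 and 146 CPM (-0.79 ± 0.0414, adjusted p = 8.54e-16).

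MKI67 and PCNA had log2 fold-changes of -0.75 ± 0.0378 and -0.95 ± 0.0470 in the siSMAD2/3/4 libraries, and their part in the result was not tested. The deposited data name a second flow cell for 2 of the 3 siSMAD2/3/4 libraries. The sample labels, however, give all siRNA libraries the same batch label. With flow cell as a term in the fit, all 10 genes stayed lower, from -0.85 ± 0.0574 for MCM7 to -1.59 ± 0.108 for CDT1. CDC6 was then at -1.09 ± 0.0749, and MCM5, MCM2 and MCM4 had larger drops, at -1.13, -1.12 and -1.10.

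None of the licensing genes passed the test between libraries labelled SLUG KO and WT, where 1.89% of 17428 genes were lower and 1.45% higher. All 10 had a log2 fold-change below 0, though CDC6 and MCM5 crossed 0 with no low-count filter, from -0.03 for CDC6 to a level 1.99-fold lower for CDT1 (log2 -0.17 ± 0.104 without WT replicate 2), and 5 of them had SLUG KO libraries that all lay below the WT libraries, against 14.5% of all genes. The median log2 fold-change was -0.34 for the members and -0.05 for all genes, so values below 0 were common among all genes. CDC6 lay above the median of all genes. The lowest edgeR adjusted p was 0.11, for MCM10.

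WT replicate 2 stood apart for some members and not for others. CDT1 was at 21.7, 73.8 and 23.5 CPM in WT and at 21.0, 20.9 and 19.0 CPM in SLUG KO, and MCM2 at 87.5, 175 and 99.3 CPM and at 126, 100.2 and 103.6 CPM. For both genes WT replicate 2 was the highest of the 6 libraries. It was the lowest WT library for ORC1, with 35.8, 26.4 and 42.0 CPM in WT and 20.8, 21.7 and 22.2 CPM in SLUG KO, and for CDC6, whose other WT libraries had 148 and 177 CPM. MKI67 was at 665, 1634 and 401 CPM and PCNA at 230.5, 116 and 290.0 CPM in the same WT libraries. For MCM4 and MCM7 replicate 2 was the middle WT library, and for MCM3 and MCM10 replicate 1 was farthest from the others. What set replicate 2 apart was not tested.

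Without WT replicate 2, 5 of the 10 genes were lower in SLUG KO, against 14.4% of 17909 genes tested. These were ORC1 (log2 -0.86 ± 0.101, edgeR adjusted p = 9.31e-06), MCM10 (-0.54 ± 0.0921, adjusted p = 3.31e-04), MCM3 (-0.49 ± 0.0898), MCM4 (-0.43 ± 0.0846) and MCM6 (-0.30 ± 0.0898, adjusted p = 0.0197). MCM2 and MCM5 then had values of 0.22 ± 0.101 and 0.10 ± 0.099, on the other side of 0, and did not pass. This fit has 2 WT libraries, and leaving out the library that stood apart was a choice made with its values in view.

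**Figure D3:**
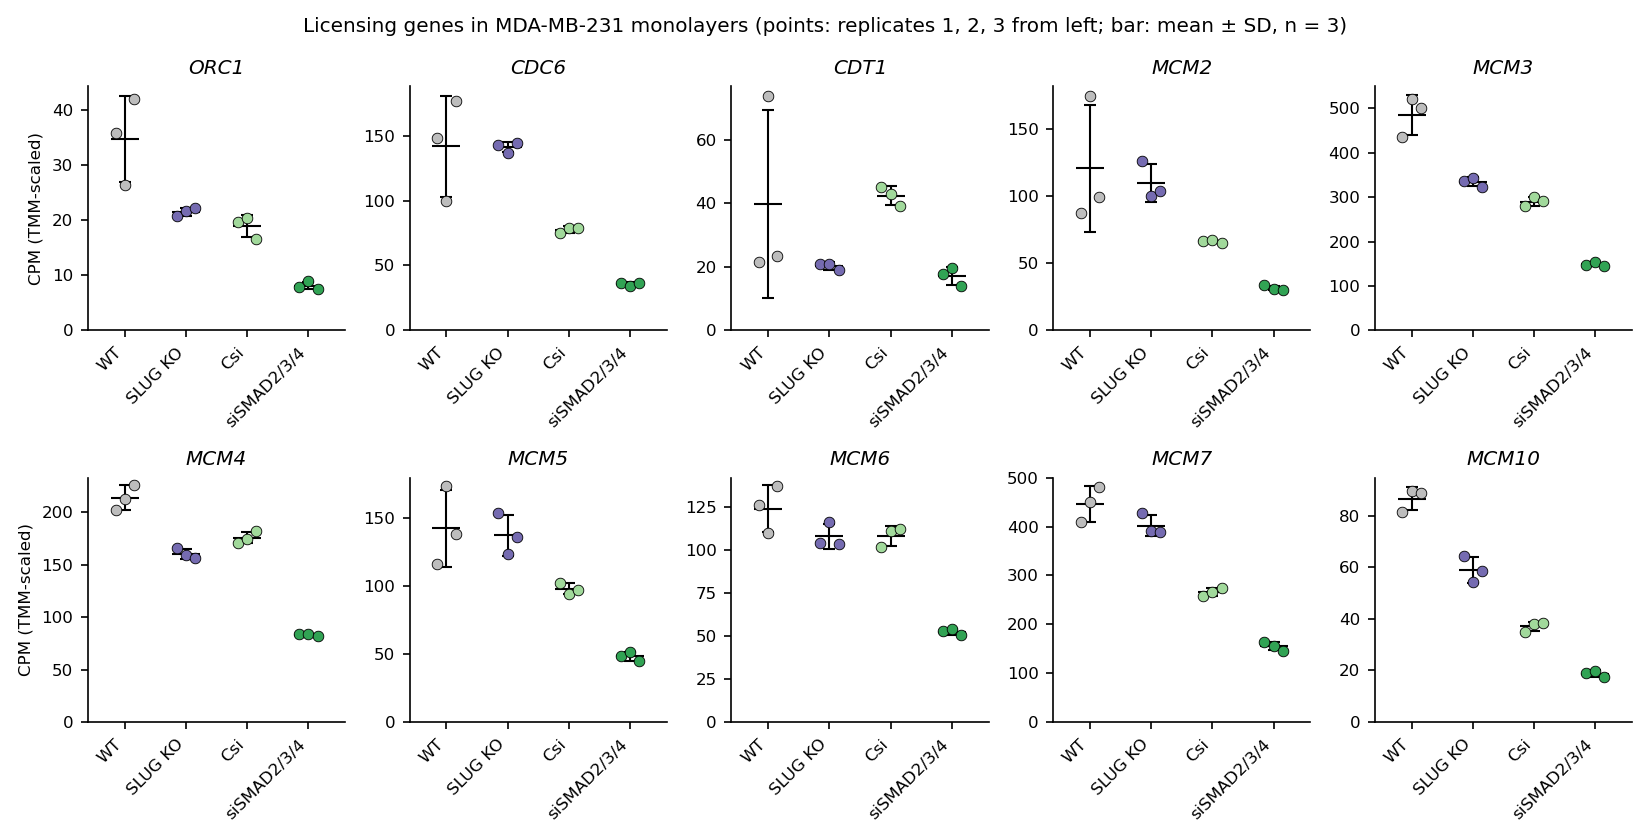
CPM of each licensing gene in the 12 MDA-MB-231 libraries, with points for replicates 1, 2 and 3 from left to right and bars for the mean ± SD of 3 libraries. The siSMAD2/3/4 libraries lie below the Csi libraries in every panel, and WT replicate 2 stands apart for CDT1 at 73.8 CPM and MCM2 at 175 CPM.

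Across the 8 groups, MII Ctrl had the lowest mean of all 10 genes (of 9 when scaled by library totals alone), and WT had the highest mean of every gene but CDT1, for which Csi was highest at 42.4 ± 3.00 CPM. WT libraries overlapped those of the group next below for MCM2, MCM5, MCM6, MCM7 and CDC6. For MCM2 and MCM5 the WT mean holds replicate 2 at 175 and 173 CPM, with the other WT libraries at 87.5 and 99.3 and at 116 and 138 CPM. For MCM2, MCM3, MCM6 and MCM10 the sphere groups ran in the same order, MII Ctrl, MI Ctrl, MI TGFβ and MII TGFβ, as they did for CDC6 and ORC1. MI Ctrl and MI TGFβ libraries overlapped for MCM2, MCM3, MCM6 and CDC6, so these neighbours did not differ beyond their spread. The edgeR fit of these 2 groups, with its own scaling, had the other sign, at -0.06, -0.02, -0.01 and -0.02. MCM10 libraries of MI Ctrl and MI TGFβ did not overlap, but its log2 fold-change was 0.01 (edgeR adjusted p = 0.939). ORC1 libraries of MI TGFβ and MII TGFβ also overlapped, and MCM4 libraries of MI Ctrl overlapped both those of MII TGFβ and those of MI TGFβ, its neighbours in the order. MCM7 was the gene whose MII Ctrl libraries reached those of the next group, MI TGFβ, at 74.5 ± 0.681 CPM. In the MDA-MB-231 groups siSMAD2/3/4 had the lowest mean of all 10 genes. The spheres and the MDA-MB-231 groups differ in line and culture, and the siRNA groups carry another batch label than all the rest. Levels across these sets were not tested.

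Per kilobase of exon, the 6 ring subunits summed to 39.2 ± 1.15 CPM per kb in MII Ctrl and 78.4 ± 1.38 in MII TGFβ, and to 64.6 ± 0.315 and 63.4 ± 1.23 in MI Ctrl and MI TGFβ. The ring holds each subunit once, but their transcripts were unequal in every group, and by this length MCM3 and MCM7 had the highest mean shares in each. MCM7 made up 42.0% ± 1.85 of the sum in MII Ctrl and 27.6% ± 1.77 in MII TGFβ, near its 29.5% ± 0.665 in MI Ctrl. Over the same step MCM2 went from 3.62% ± 0.634 to 7.25% ± 0.681, and MCM6 from 6.88% ± 0.468 to 11.6% ± 1.45. Shares of 5 of the 6 subunits did not overlap between MII Ctrl and MII TGFβ, and MCM4, at 16.0% ± 0.752 and 16.7% ± 0.553, was the exception. The shares in a library are parts of the same sum, so a lower share of MCM7 goes with higher shares of others. They restate the unequal fold-changes given above and are not separate results. In Csi and siSMAD2/3/4 libraries MCM7 made up 27.7% ± 0.347 and 30.9% ± 0.868.

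The sizes of these shares depend on the length used for each gene. With the coding length of the GENCODE v44 canonical transcript, MCM7 made up 41.9% ± 1.78 in MII Ctrl and 27.7% ± 1.73 in MII TGFβ, but the order of the subunits changed. MCM4 in MI Ctrl went from 21.8% to 28.3% and MCM3 from 26.9% to 19.5%, so that MCM4 had the higher mean in all 4 sphere groups, and in MI TGFβ it was also above MCM7, at 29.9% and 26.5%. In MII TGFβ MCM4 and MCM3 were close, at 22.1% ± 0.649 and 21.3% ± 0.728. MCM5 in MII TGFβ went from 8.08% to 13.1%. Counting did not use strand, and 23.6% of the MCM2 exon length overlaps an antisense lncRNA, and 8.94% of that of MCM7 overlaps AP4M1, so fragments there cannot be placed. None of the other 8 members shares exon sequence with another annotated gene.

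**Figure D4:**
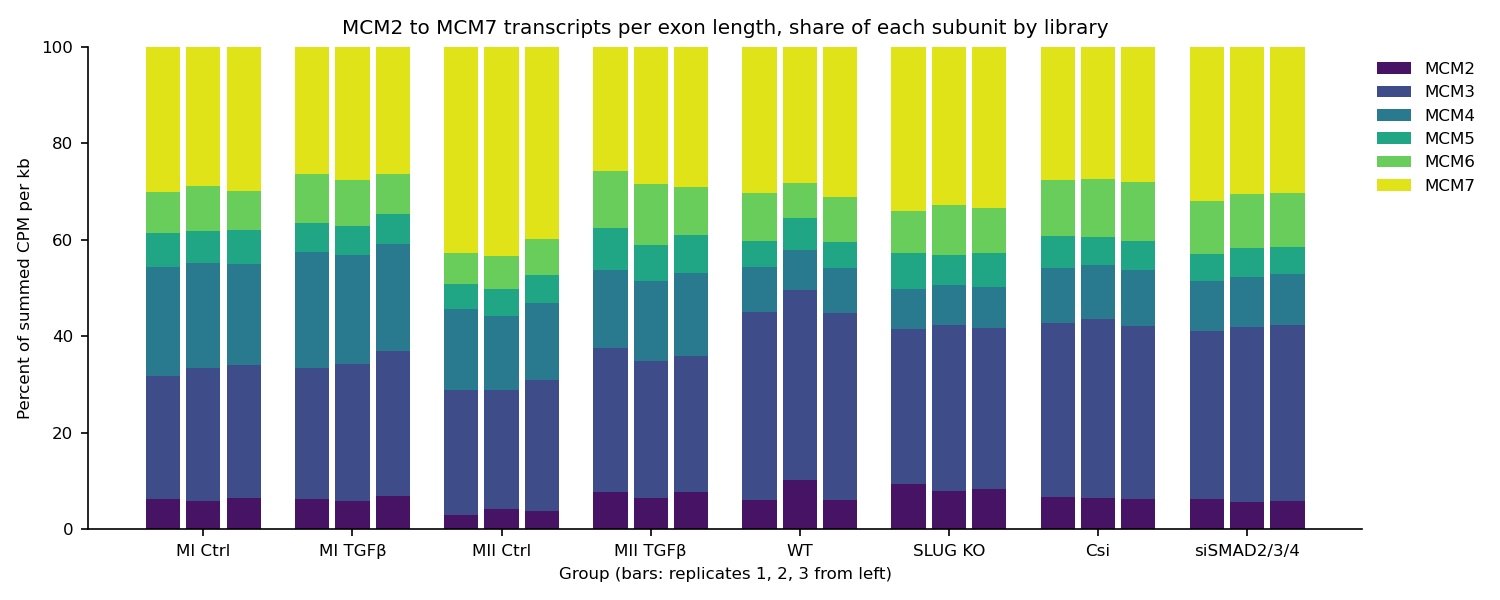
Stacked bars of the percent that each of MCM2 to MCM7 takes of their summed CPM per kb of exon, with 1 bar for each of the 24 libraries. The MCM7 segment is widest in MII Ctrl, at 42.0% ± 1.85, and takes 27.6% ± 1.77 in MII TGFβ.

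The ratio of CDT1 to its inhibitor GMNN, both per kb of exon, was 0.433 ± 0.0825 in MII Ctrl and 0.358 ± 0.0503 in MII TGFβ, and the libraries overlapped. It was 0.168 ± 0.00387 in MI Ctrl and 0.152 ± 0.0180 in MI TGFβ. Every MII library was above every MI library. GMNN itself was lower in MII Ctrl than in MI Ctrl (log2 -2.34 ± 0.0801, edgeR adjusted p = 3.23e-32), where CDT1 had -0.92 ± 0.150, and it was also lower in MII after stimulation (-0.81 ± 0.0841, adjusted p = 1.36e-08).

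The wider pathway was followed with a list of 32 other genes of licensing and origin firing. In MII spheres 24 of them rose and 2 fell with TGFβ, against 29.9% and 27.6% of all genes, with a median log2 fold-change of 0.45. DTL, which marks CDT1 for destruction in S phase, rose by 3.21 ± 0.169 log2 units (edgeR adjusted p = 9.11e-23), the helicase partner CDC45 by 2.76 ± 0.163 and the GINS subunit GINS2 by 2.30 ± 0.140. DBF4B, an alternative activator of the kinase CDC7, fell by 0.72 ± 0.208 and MCM9, a relative of the ring subunits that works in DNA repair, by 0.29 ± 0.0733. The subunits of the origin recognition complex split: ORC6 rose by 1.85 log2 units and ORC3 by 0.22, whereas ORC2, ORC4 and ORC5 had values of 0.05, 0.05 and 0.18 and did not pass.

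In MI spheres 10 pathway genes rose and 5 fell, against 28.7% and 27.4% of all genes, with a median of 0.12. SKP2, which targets CDT1 and the inhibitor p27, rose most, by 0.73 ± 0.0799 (edgeR adjusted p = 1.37e-07), followed by GINS3 with 0.40 ± 0.131 and the loading chaperone GRWD1 with 0.37 ± 0.0545. DBF4B fell by 0.70 ± 0.177, DTL by 0.38 ± 0.119 and CDC45 by 0.32 ± 0.133. The interaction was positive for 14 pathway genes, led by DTL at 3.60 ± 0.226, CDC45 at 3.09 ± 0.213 and GINS2 at 2.27 ± 0.181, and negative for ORC2 at -0.29 ± 0.0848, where all genes had 12.6% and 9.75%. The other 17 did not pass, among them SKP2 at 0.24 (adjusted p = 0.138), which rose in both lines.

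**Figure D5:**
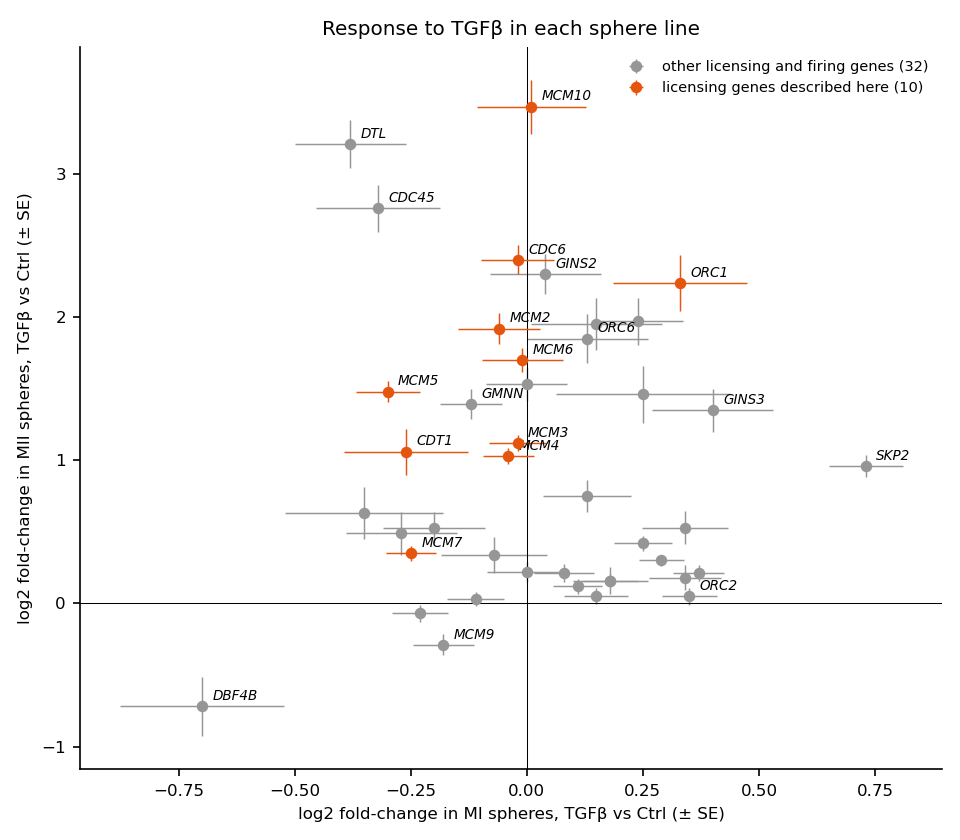
log2 fold-change with TGFβ in MI spheres (x axis) and in MII spheres (y axis), each with its SE, for the 10 licensing genes and 32 other licensing and firing genes. MCM10 at 3.47, DTL at 3.21 and CDC45 at 2.76 lie highest in MII, with 0.01, -0.38 and -0.32 in MI.

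Between unstimulated lines 24 pathway genes were lower in MII, against 32.5% of all genes, and 0 were higher by edgeR, against 31.7%, with GMNN, DTL and GINS1 lowest at -2.34, -2.26 and -2.24. After stimulation 10 were higher in MII, led by DTL, CDC45 and GINS2 at 1.34, 1.13 and 0.77, and 13 were lower, led by GMNN, the MCM-binding protein gene MCMBP and GINS1 at -0.81, -0.51 and -0.50, with 31.1% and 31.6% for all genes. SMAD2/3/4 siRNAs lowered 25 of the 32, against 19.7% of all genes, and raised 0 by edgeR, against 16.3%. DTL, GINS2 and CDC45 had the largest drops, at -1.42 ± 0.0604, -1.02 ± 0.0826 and -1.01 ± 0.0756. With flow cell as a term DTL was at -1.41, followed by RECQL4, CDC45 and GINS2 at -1.09, -1.06 and -1.05. ORC3 then did not pass (-0.21, edgeR adjusted p = 0.0822). None of the 32 passed between SLUG KO and WT, whereas without WT replicate 2 there were 13 lower and 4 higher, against 14.4% and 16.8% of all genes.

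Over the 12 sphere libraries, each member was compared with the mean standardised log2(CPM + 1) profile of the 10, which holds the member itself. Pearson r ran from 0.771 for MCM7 and 0.899 for MCM4 to 0.987 for MCM3. Among 14763 protein-coding genes outside both lists, those most like the mean profile were the histone genes H2AC14 (r = 0.995), H1-5 (0.994) and H3C8 (0.993), the replication checkpoint gene CLSPN (0.994) and the kinetochore gene SKA1 (0.993), and 142 genes had r above 0.9. With TGFβ these 5 genes had log2 fold-changes of 2.83, 3.22, 3.60, 3.50 and 2.63 in MII and of -0.01, 0.01, 0.07, -0.04 and 0.00 in MI, in the order given. The genes were picked for their likeness over the same libraries, so a rise in MII alone follows from the choice. The 12 points form 4 groups and share scaling, so r describes the pattern of group means, and the histone values can hold reads of near-identical copies.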

How the data were processed

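RNA was sequenced from 24 libraries in 8 groups, with groups and replicate numbers taken from the labels. Per the labels and methods, the authors made stranded total RNA libraries, trimmed reads with Trimmomatic, aligned them with STAR to GRCh38.p13, and counted fragments over GENCODE v38 exons by gene with featureCounts (Subread 2.0.0), without strand and with a mapping quality of at least 30. The deposited values are raw counts per gene for each library. Names were matched for 99.7% of 60708 genes with GENCODE v44. The 16 ATAC-seq samples were not analysed here.

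Each comparison was fitted on the whole count table of its 6 libraries (12 for the interaction) with edgeR 4.0.16 in R 4.3.3: filterByExpr, TMM scaling, glmQLFit and glmQLFTest, with p-values adjusted by Benjamini-Hochberg over every gene in the fit. SE is the log2 fold-change divided by the root of F. A gene was called at an adjusted p under 0.05, and was a DEG with a log2 change past 1. Levels are CPM with TMM over the 24 libraries. The sequence of steps was tested on simulated counts. Alternatives were DESeq2 1.42.0, other scalings, filters, a gene-length correction, a replicate block and leaving out each library.

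The members and gene lists were chosen with earlier results of these data known. Named genes were the 10 members, the 3 called pathway genes with the largest change per direction and comparison, the targeted genes, and the 5 genes most like the mean profile. ORC2 to ORC6, SKP2 in the interaction, RECQL4, and MKI67 and PCNA were named after their values were seen. Replicates are labelled as such, but separate cultures are not stated for each group, so p-values may measure technical spread. The same replicate number did not pair libraries (r of deviations -0.123 to 0.032). No 2 libraries agreed within sampling noise (lowest chi-square per gene 1.8).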

Additional observations from a re-analysis of the deposited data

Results flagged for a closer look

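The response to TGFβ differed between MII and MI spheres for all 10 licensing genes, by a test of the difference itself (interaction term in edgeR over 12 libraries, adjusted p from 6.71e-17 to 5.73e-06). The difference in log2 fold-change, MII minus MI, was 3.47 for MCM10, 2.43 for CDC6, 2.00 for MCM2, 1.92 for ORC1, 1.79 for MCM5, 1.72 for MCM6, 1.32 for CDT1, 1.14 for MCM3, 1.08 for MCM4 and 0.62 for MCM7. MKI67 had a difference of 2.07 and PCNA of 1.09 in the same test, and their part in the result was not tested. The MII Ctrl libraries had the lowest mean of the sphere groups for each of these genes (9 of 10 with library totals alone), and they enter this difference.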

How the results depend on the processing

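Between MII TGFβ and MII Ctrl, between siSMAD2/3/4 and Csi and in the interaction, every member kept its direction and its call under all alternatives run. Those calls are on adjusted p, and some members crossed the DEG threshold of 1. In MII spheres MCM3, MCM4 and CDT1 were at 0.98, 0.89 and 0.92 with library totals alone. Over the alternatives MCM5 reached -0.98 and MCM10 -1.09 under SMAD2/3/4 siRNAs. In MII Ctrl against MI Ctrl, MCM5 reached -0.92, MCM6 -0.94 and CDT1 -1.19. The causes of the changes that follow were not tested.

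MI TGFβ against MI Ctrl was least stable. With library totals alone 6 members and 10 pathway genes were lower and 5 pathway genes higher, a scaling that moved the median of all genes to -0.15. Pathway genes lower numbered 2 with DESeq2 and 3 with no low-count filter. ORC1 made 1 member higher with the replicate block (0.34, adjusted p = 0.0355), with the block and gene-length correction (0.31) and with all 12 sphere libraries in 1 fit (0.35). Values near 0 that did not pass changed sign: MCM3, MCM6 and CDC6 to 0.02, 0.03 and 0.02 with DESeq2 and to 0.00, 0.01 and 0.01 in the fit of 12 libraries, and MCM10 to -0.13 with library totals and -0.02 with at least 10 counts in every library. Leaving out each library gave 0 to 1 members higher and 2 to 6 pathway genes lower, with MCM2 from -0.12 to 0.01, MCM3 from -0.06 to 0.03, MCM6 from -0.06 to 0.07, CDC6 from -0.03 to 0.02, CDT1 from -0.38 to -0.17 and ORC1 from 0.24 to 0.45.

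For MII against MI, library totals alone made 1 pathway gene higher in Ctrl spheres and put MCM4 at 0.01 in TGFβ spheres. There, pathway genes higher numbered 6 with DESeq2 and 6 to 10 without each library. The interaction had 1 to 2 pathway genes lower without each library.

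For SLUG KO against WT, 1 pathway gene was lower with DESeq2, with library totals alone and with the gene-length correction. CDC6 was at 0.01 with DESeq2, 0.03 with no low-count filter and 0.01 with the replicate block, and MCM5 at 0.00 with no low-count filter. Without each library there were 0 to 5 members lower, 0 to 4 pathway genes higher and 0 to 13 lower, the upper values without WT replicate 2, and MCM2 ran from -0.32 to 0.22, MCM5 from -0.18 to 0.10 and CDC6 from -0.21 to 0.16.

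The replicate block changed no other call on a member. Of 80 mean levels 23 moved by more than 1 SD with library totals alone, and of 48 subunit shares 41 moved with coding lengths. MII Ctrl was lowest for 9 of 10 members with library totals. The planned protein lengths were not run. Depth limits MCM10 and ORC1 most, with 15 to 49 reads in MII Ctrl libraries.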
